A study of Mus musculus with 46 samples.

Results

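Messenger RNA of 10 genes of the NF-κB (nuclear factor kappa B) pathway was followed through 8 gene tables of mouse RNA-seq. They were the subunits Nfkb1, Nfkb2, Rela and Relb, the inhibitors Nfkbia and Tnfaip3, and the target genes Birc3, Vcam1, Icam1 and Ptgs2. They were chosen by gene symbol, and all 10 were found among the 24537 genes of each table. The tables held 42 of the series' 46 libraries, in 21 groups of 2. The 4 total RNA libraries were not used here.

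The series asked what happens to gene expression in tumor cells when Arid1a is lost, a subunit of SWI/SNF, the complex that uses ATP to move nucleosomes. B16F10, a mouse melanoma line, carried a guide against Arid1a (sgArid1a) or a control guide (sgScramble), and the labels do not say whether the cells were clones or pools. Tumors of sgArid1a and of sgScramble cells, grown under the skin of mice whose strain and age the labels do not give, were taken on day 15. Untreated cultures were sgArid1a cells with a second guide, sgCgas or sgSting, sgArid1a cells and sgScramble cells. For 72 h, sgArid1a cells received anti-IFNAR, an antibody that blocks the receptor of type I interferons, ruxolitinib, an inhibitor of the kinases JAK1 and JAK2, or its solvent DMSO, and sgScramble cells received DMSO. In another table, sgArid1a and sgScramble cultures were labelled as given interferon-gamma (IFNγ) for 24 h or PBS. In a further table, sgScramble cells were given BD98, a compound known here by its code name, with or without anti-IFNAR, or DMSO, for 72 h. MC38, labelled as colon cancer cells, carried sgArid1a or sgScramble and were untreated. Mouse embryonic fibroblasts (MEFs), Arid1a fl/fl, were labelled Arid1a -/- on day 5 after tamoxifen or WT on day 5 after ethanol. The labels do not name the recombinase, and tamoxifen and the deletion cannot be told apart.

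NF-κB proteins are dimers of related subunits. In resting cells, inhibitors such as IκBα, the product of Nfkbia, hold them in the cytoplasm. In the canonical route, signals from tumor necrosis factor, interleukin 1 or Toll-like receptors lead to the destruction of IκBα, and RelA with p50 (from Nfkb1) enters the nucleus. In the noncanonical route, p100 (from Nfkb2) is cut to p52, which acts with RelB. Many NF-κB genes are themselves NF-κB targets, and Nfkbia and Tnfaip3 act as feedback inhibitors. Their messenger RNA levels measure neither processing nor nuclear entry of the proteins.

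In mm10 coordinates, the tumor table listed Nfkb1 at chr3:135584655-135691547, Nfkb2 at chr19:46304737-46312090, Rela at chr19:5637490-5648130 and Relb at chr7:19606222-19629438. It listed Nfkbia at chr12:55489409-55492647, Tnfaip3 at chr10:19000910-19015410 and Birc3 at chr9:7848701-7873170. Vcam1 stood at chr3:116110020-116129688, Icam1 at chr9:21015940-21028814 and Ptgs2 at chr1:150100031-150108234. All values are over the exons of a gene. In 4 tables each, another start was listed for Nfkb2 (46305695) and for Tnfaip3 (19011963 on the minus strand). Exons of Nfkb2 share 531 bases with AC114539.1 and 299 bases with Psd on the opposite strand (GENCODE vM21), those of Icam1 share 511 with Gm47079 and those of Vcam1 share 61 with Gm43109. The counting commands in the file headers state no strand option, so values of these 3 genes may include reads of their antisense partners.

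Promoter windows were searched for the κB consensus because feedback by NF-κB on its own genes runs through such letters. RefSeq windows of build GRCm38.p6 were found for 7 of the 10 genes (10 windows, several starts for Nfkb2 and Tnfaip3). In the 250 bases before the start, a match to the 10-base κB consensus on either strand was found for 3 of the 7, Nfkb2, Nfkbia and Tnfaip3, which are a subunit and both inhibitors. Rela, Birc3, Icam1 and Ptgs2 had a window without a match. No window was found for Nfkb1, Relb and Vcam1, so they were not searched. Over all 32851 such windows, 2382 (7.25%) held a match. That share counts windows, while the 3 of 7 counts genes with a match in any of their windows. The windows are shown 5′ to 3′ on the strand of the gene and end at the base before the start. Capitals mark the matched stretches. The Nfkb2 window is chr19:46304487-46304736 on the plus strand, with stretches at positions -39 to -29 and -11 to -2 from the start. The Nfkbia window is chr12:55492648-55492897 on the minus strand, with a stretch at -29 to -20. The Tnfaip3 window is chr10:19015411-19015660 on the minus strand, with stretches at -125 to -116 and -12 to -3. Each of the other 2 Nfkb2 windows held 1 stretch, and the other Tnfaip3 window held none. A match is a stretch of letters, and binding was not measured.
Nfkb2: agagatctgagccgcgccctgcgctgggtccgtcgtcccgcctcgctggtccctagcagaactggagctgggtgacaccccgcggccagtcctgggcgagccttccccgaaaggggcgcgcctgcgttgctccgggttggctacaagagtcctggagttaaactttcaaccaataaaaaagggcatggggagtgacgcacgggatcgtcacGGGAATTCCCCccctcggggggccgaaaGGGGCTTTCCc
Nfkbia: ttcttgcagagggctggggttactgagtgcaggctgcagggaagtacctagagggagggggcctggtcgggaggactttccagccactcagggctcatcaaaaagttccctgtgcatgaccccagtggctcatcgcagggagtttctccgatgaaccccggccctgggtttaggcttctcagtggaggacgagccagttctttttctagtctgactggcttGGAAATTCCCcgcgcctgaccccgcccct
Tnfaip3: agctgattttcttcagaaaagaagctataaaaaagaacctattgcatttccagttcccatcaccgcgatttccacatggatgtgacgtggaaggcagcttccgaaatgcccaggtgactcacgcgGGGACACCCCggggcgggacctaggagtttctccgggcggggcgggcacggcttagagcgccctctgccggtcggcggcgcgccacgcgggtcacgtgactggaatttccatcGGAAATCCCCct

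The tables differ in scale. The BD98 table holds raw counts, and the other 7 hold the authors' normalized log2 values, in which low values are drawn together and differences of low genes are understated. Read totals in the file headers ran from 8.7 to 38.8 M reads a library. The lowest belonged to sgScramble replicate 1 of the untreated cultures, against 22.8 M reads in its replicate 2. On log2 tables, genes with a mean of at least 4 were tested with limma, and on counts with edgeR's quasi-likelihood test. P-values were adjusted by the Benjamini-Hochberg method over all genes tested, and genes with an adjusted p below 0.05 count as called. Errors after ± are standard errors of a log2 fold change. Nothing in the labels says that the 2 libraries of a group came from separate cultures or animals, so p-values measure the spread between libraries, which may be technical. Arid1a was called lower with the sgArid1a label in tumors, untreated cultures and MC38 cells and in Arid1a -/- MEFs (log2 fold changes of -0.58 to -0.14). It was not called in the DMSO cultures (-0.26 ± 0.12, limma, adjusted p = 0.23). Libraries of the IFNγ table went against their labels. Those with a second guide did so in part, as Arid1a was above its level in sgArid1a cells. Sting mRNA was lower with the sgSting label, as that label says. Results of all these libraries are given under the labels' names.

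In cultured B16F10 cells the pathway's own components were well above its adhesion and inflammatory targets. Per length of transcript, Rela averaged 27.9 ± 0.05 RPKM (reads per kilobase of transcript, scaled to library size; SD, n = 2) with BD98 and anti-IFNAR, 26.9 ± 0.05 with BD98 and 22.5 ± 0.76 with DMSO. Nfkb1 averaged 19.3 ± 1.14 RPKM with BD98 and anti-IFNAR, 18.1 ± 0.54 with BD98 and 22.3 ± 0.09 with DMSO, so that it lay below Rela in both BD98 groups and overlapped it with DMSO. Nfkb2 was next in every group, at 16.5 ± 0.54 with BD98 and anti-IFNAR, 16.4 ± 0.96 with BD98 and 12.6 ± 0.55 with DMSO, below Nfkb1 in every library. Nfkbia had 12.3 ± 0.61 RPKM with BD98 and anti-IFNAR, 12.5 ± 0.28 with BD98 and 11 ± 0.85 with DMSO. Relb, at 6.59 ± 0.06 with BD98 and anti-IFNAR, 6.92 ± 0.47 with BD98 and 6.42 ± 0.03 with DMSO, lay below Nfkbia in every library. Over all 6 libraries Birc3, an inhibitor of apoptosis that also ubiquitinates components of the pathway, ranged from 0.529 to 1.02 RPKM and Tnfaip3, the ubiquitin-editing enzyme A20, from 0.313 to 1.08, with overlapping ranges. Icam1, an adhesion molecule for leukocyte integrins, had 2 to 14 counts a library.

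Vcam1, which binds integrins of lymphocytes and monocytes, and Ptgs2, the inducible cyclooxygenase that makes prostaglandin precursors, had 0 counts in all 6 libraries of that table. With 13053471 to 23652618 gene counts a library, 0 counts allow up to 0.127 to 0.230 CPM (counts scaled to library size; 3 counts per library, counting error only). In the log2 tables of B16F10 cultures, Vcam1 was at -2.09 to -2.08 in the table with second guides. It was at -0.17 to -0.16 in the IFNγ table and at 0 in the others. Ptgs2 was at -1.97 to -1.96 in the ruxolitinib table and at 0 in the others. The same untreated sgScramble libraries had Vcam1 at -2.09 in the table with second guides and at 0 in the anti-IFNAR table. Such low values therefore do not rank levels. In tumors of the same line, Vcam1 was between 7.47 and 9.41 and Ptgs2 between 7.59 and 8.85. MC38 cells and MEFs held Vcam1 at 9.17 to 9.98 and Ptgs2 at 9.76 to 11.73. Icam1 was under 4 in B16F10 cultures and in MC38 cells, at 4.32 to 4.47 in MEFs and at 7.21 to 7.73 in tumors. The tables were normalized separately, so these levels are side by side without a test.

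**Figure D1:**
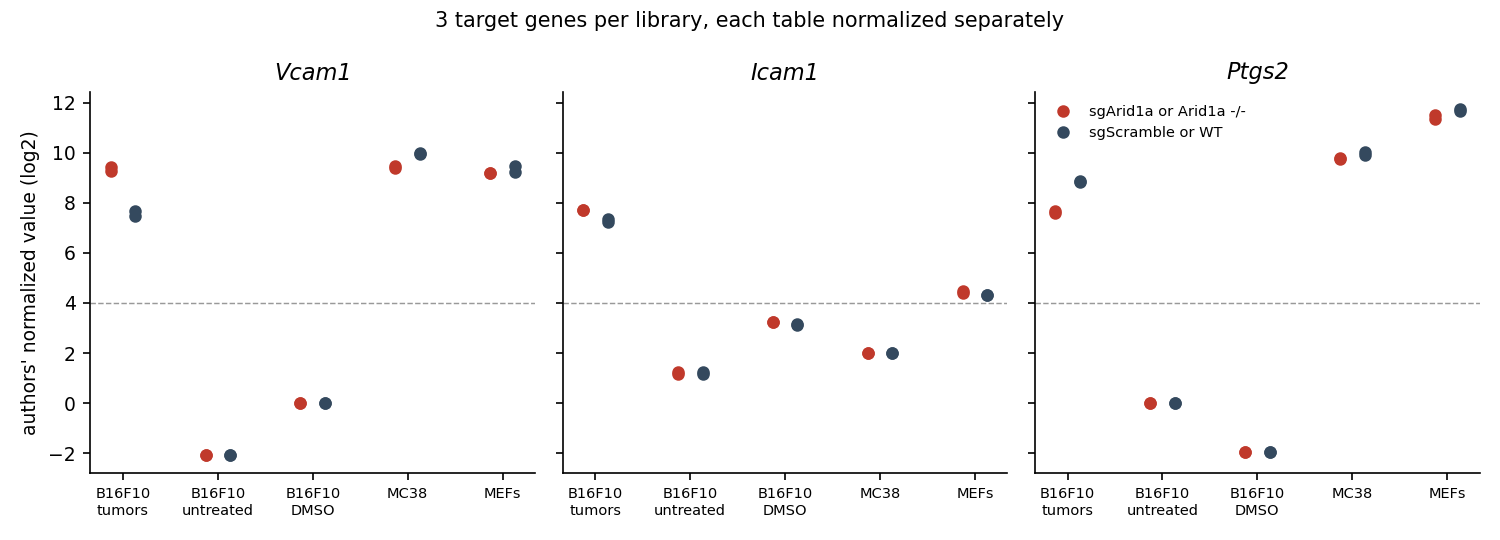
Authors' normalized log2 values of Vcam1, Icam1 and Ptgs2 in each library (points) of sgArid1a or Arid1a -/- (left, red) and sgScramble or WT (right, dark) samples in 5 settings; the dashed line at 4 is the lowest mean that was tested. Vcam1 and Ptgs2 lie at or under 0 in B16F10 cultures and above 7 in tumors, MC38 cells and MEFs.

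Tumors held the largest differences of these genes among the log2 tables. Of the 10 genes, all tested, 5 rose in sgArid1a tumors and 1 fell in limma, where 54% of all 13895 tested genes were called (26% higher, 28.1% lower). The share of the members called, 6 of 10, was thus near that of all genes. Their median log2 fold change was 0.19, beside -0.02 over all genes tested.

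Among the subunits in tumors, Relb, the partner of p52, had log2 values of 9.25 and 9.47 in sgArid1a tumors, against 8.80 and 8.69 in sgScramble tumors. Its log2 fold change was 0.61 ± 0.09 (limma, adjusted p = 7.8e-05), and both libraries of sgArid1a tumors lay above both of sgScramble tumors. Nfkb2, which encodes p100, had 10.15 and 10.25 in sgArid1a tumors, against 9.93 and 9.77 in sgScramble tumors, a difference of 0.34 ± 0.07 (limma, adjusted p = 0.002). These are the pair of the noncanonical route. The canonical pair moved less: Nfkb1 had 10.68 and 10.76 in sgArid1a tumors, against 10.57 and 10.56 in sgScramble tumors, 0.15 ± 0.06 (limma, adjusted p = 0.065). Rela had 10.60 and 10.70, against 10.68 and 10.56, and the groups overlapped (0.03 ± 0.07, limma, adjusted p = 0.74). That Relb and Nfkb2 differ from Nfkb1 and Rela in their response was not tested.

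Of the inhibitors in tumors, Tnfaip3 was called and Nfkbia was not, and the difference between them was not tested. Nfkbia, 9.51 and 9.54 in sgArid1a tumors and 9.63 and 9.57 in sgScramble tumors, was not called (-0.08 ± 0.07, limma, adjusted p = 0.37). Tnfaip3 had 8.09 and 8.27 in sgArid1a tumors, against 8.02 and 7.88 in sgScramble tumors, 0.23 ± 0.08 (limma, adjusted p = 0.04). The gap between the groups was small, and the call was lost without sgArid1a replicate 2 (0.14, adjusted p = 0.31), without sgScramble replicate 2 (0.16, adjusted p = 0.15) and with no filter on low values (adjusted p = 0.09). In the authors' deposited table, Tnfaip3 had a log2 fold change of 0.33 with an adjusted p of 0.14.

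The target genes parted in direction. Vcam1 had 9.41 and 9.26 in sgArid1a tumors, against 7.47 and 7.69 in sgScramble tumors, 1.76 ± 0.09 (limma, adjusted p = 1.6e-08). The authors' deposited table gave 2.39 for the same comparison. Icam1 had 7.73 and 7.72 in sgArid1a tumors, against 7.33 and 7.21 in sgScramble tumors, 0.45 ± 0.07 (limma, adjusted p = 0.00027). Both adhesion genes were thus above in both libraries of sgArid1a tumors. Ptgs2 went the other way, with 7.67 and 7.59 in sgArid1a tumors, against 8.85 in each library of sgScramble tumors. Its log2 fold change was -1.22 ± 0.07 (limma, adjusted p = 6.6e-08), and the authors' deposited table gave -1.74. Birc3 did not separate the groups (7.67 and 7.53 in sgArid1a tumors, 7.49 and 7.66 in sgScramble tumors). Without any 1 of the 4 tumor libraries, Vcam1 stayed between 1.65 and 1.87, Icam1 between 0.39 and 0.51, and Ptgs2 between -1.26 and -1.18.

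**Figure D2:**
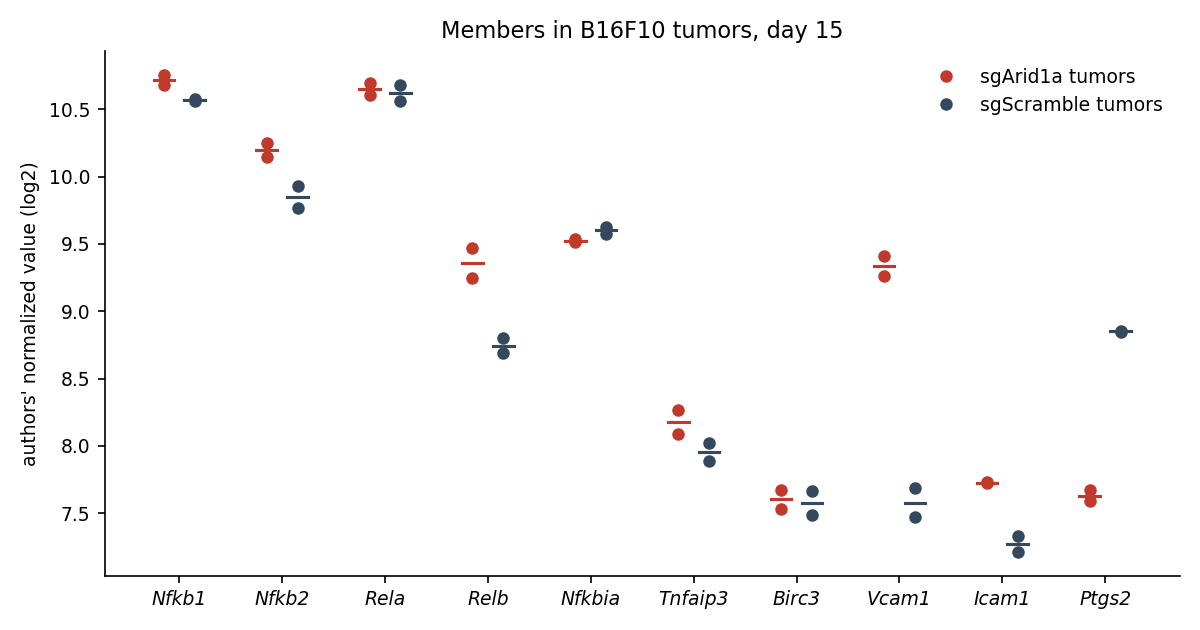
Authors' normalized log2 values of the 10 genes in sgArid1a (left, red) and sgScramble (right, dark) B16F10 tumors on day 15. Points are libraries, 2 a group, and bars are means. Vcam1 shows the widest gap with sgArid1a above, and Ptgs2 the only wide gap with sgArid1a below.

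Tumors contain host cells, and markers of such cells moved too. All 7 endothelial markers, Pecam1 and Cdh5 among them, rose in sgArid1a tumors, with a summed log2 level of 12.59 to 12.61, against 12.14 to 12.21 in sgScramble tumors. All 7 macrophage markers rose (14.31 to 14.37, against 13.15 to 13.24), and so did Ptprc, the pan-leukocyte marker CD45 (9.59 to 9.66, against 8.33 to 8.48). Of 5 neutrophil markers, 3 were tested, S100a8 and S100a9 fell and Csf3r rose (summed level 7.61 to 7.65, against 7.99 to 8.0). Skeletal muscle markers rose in 4 of 4 (13.10 to 13.12, against 10.19 to 10.30). The summed melanocytic level was 19.22 to 19.24, against 19.65 to 19.68, with 1 of 7 markers called higher and 3 lower. Fibroblast markers gave 15.12 to 15.15, against 15.21 to 15.40, with 3 of 7 higher and 2 lower. Of the dendritic markers 3 of 4 rose (8.42 to 8.52, against 8.20 to 8.27), and of the T cell markers 2 of 4 were tested and rose (6.60 to 6.61, against 6.11 to 6.12). The part of these cells in the results of the 10 genes was not tested, and in whole tumors fewer cells of a type and less RNA per cell cannot be told apart. In cultured B16F10 cells, where Vcam1 and Ptgs2 were at or under 0, Ptprc was at 0 in all libraries of 3 log2 tables, and the 7 endothelial markers were under 4 in all.

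Other genes of the pathway, from 4 lists by role, changed in both directions in tumors: of 66 genes, 61 were tested, 23 rose and 16 fell (median log2 fold change 0.06), beside 54% of all genes called. Among further subunits and inhibitors 5 of 10 rose and 1 fell. Bcl3, a nuclear IκB protein that works with p50 and p52, had 7.68 and 7.88 in sgArid1a tumors, against 7.21 and 7.16 in sgScramble tumors (0.59 ± 0.08, limma, adjusted p = 7.4e-05). Nfkbie, which encodes IκBε, rose by 0.41 ± 0.08 (limma, adjusted p = 0.00066). Ligands and receptors rose in 7 of 13 and fell in none at the threshold. They included Tlr2, a receptor for bacterial lipoproteins (0.68 ± 0.07, limma, adjusted p = 9.7e-06), and Tnfrsf1b, the second tumor necrosis factor receptor (0.67 ± 0.07, limma, adjusted p = 8.6e-06). Kinases and adaptors were split, 5 higher and 6 lower of 19, with the adaptor Traf1 at 0.58 ± 0.07 and Tradd at -0.53 ± 0.07 (limma, adjusted p = 2.5e-05 and 5.6e-05). Other targets rose in 6 and fell in 9 of 19. Lcn2, the iron-scavenging lipocalin, rose by 1.16 ± 0.06, and the neutrophil chemokine Cxcl5 changed by -0.88 ± 0.07 (limma, adjusted p = 2.3e-08 and 5.2e-07). Of the neutrophil list, S100a8 and S100a9 also fell while Csf3r rose, and the part of host cells was not tested here either.

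In untreated B16F10 cultures 0 of the 6 members with a tested level were called in limma between sgArid1a and sgScramble cells, against 11.8% of all 11604 genes tested. At an unadjusted p under 0.05, limma gave 1 of the 6, beside 25.9% of all genes. It was Nfkbia, the IκBα gene, with 7.85 and 7.86 in sgArid1a cells, against 7.45 and 7.62 in sgScramble cells, 0.32 ± 0.11 (limma, adjusted p = 0.08). Both sgArid1a cultures lay above both controls. Without sgScramble replicate 2 the call was made (0.41, adjusted p = 0.025), as was that of Nfkb2 (0.37, adjusted p = 0.03), and the remaining control was then the library of 8.7 M reads. In the DMSO cultures, which are other libraries, 0 of 6 members were called in limma, beside 7.88% of 11783 genes, and 1 had an unadjusted p under 0.05, beside 23.4% of genes. There Nfkbia had 7.90 and 7.92 in sgArid1a cells, against 7.67 and 7.75 in sgScramble cells, 0.20 ± 0.07 (limma, adjusted p = 0.12).

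The other subunits spread around 0 in these cultures. Nfkb1 had 9.68 and 9.64 in untreated sgArid1a cells, against 9.82 in both sgScramble libraries (-0.16 ± 0.09), and its DMSO values overlapped (10.19 and 10.23, against 10.26 and 10.13). Relb overlapped in the untreated cultures (7.43 and 7.24, against 7.06 and 7.28), and in DMSO it had 7.35 and 7.40, against 7.44 and 7.50. Rela and Nfkb2 overlapped in both. Birc3, near the lower limit of testing, was at 4.33 to 4.37 in untreated sgArid1a cells, against 4.35 to 4.45 in sgScramble cells, and its groups also overlapped in DMSO (-0.03 ± 0.05). The differences of Tnfaip3, Vcam1, Icam1 and Ptgs2 were not tested in either, as their means were under 4.

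Pathway genes outside the 10 changed in a few cases in these cultures. Of 40 tested, 3 fell and none rose in the untreated cells, beside 11.8% of all genes called. In DMSO 2 rose and 3 fell, beside 7.88%. Tlr4, the receptor for bacterial lipopolysaccharide, was lower in both: -0.52 ± 0.10 untreated and -0.45 ± 0.09 in DMSO (limma, adjusted p = 0.0044 and 0.0099). Tnfaip2, a gene induced by tumor necrosis factor, was also lower in both, by -0.59 ± 0.11 and -0.51 ± 0.08 (limma, adjusted p = 0.0031 and 0.003). In DMSO, Tbk1, a kinase that acts below STING, had a log2 fold change of 0.31 ± 0.08 and its relative Ikbke -0.32 ± 0.08 (limma, adjusted p = 0.042 and 0.036). The macrophage list held 1 tested gene in untreated cells and 3 in DMSO, of which 1 fell in each.

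**Figure D3:**
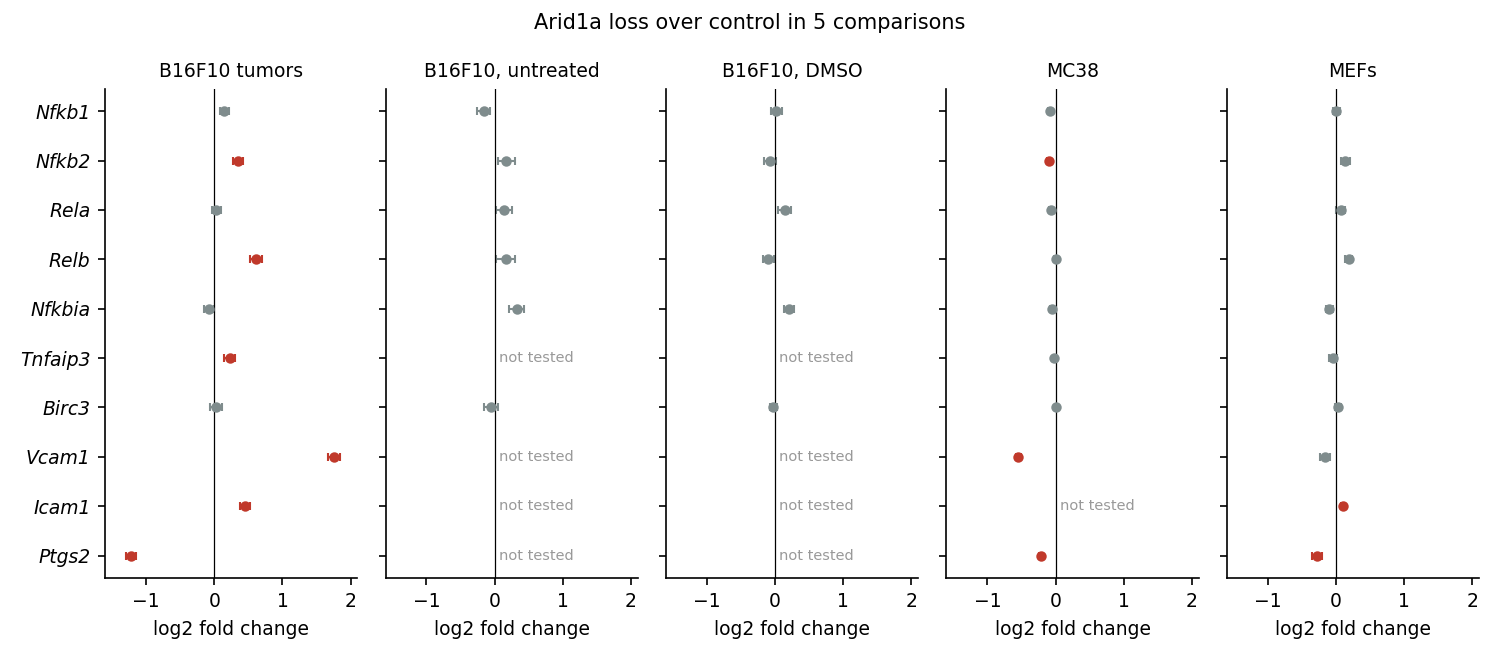
Log2 fold changes of the 10 genes, sgArid1a over sgScramble or Arid1a -/- over WT, in 5 comparisons; bars are ± 1 standard error from limma with 2 libraries a group, and red points are called at an adjusted p under 0.05. Tumors reach from -1.22 for Ptgs2 to 1.76 for Vcam1, and all tested values in B16F10 cultures lie between -0.16 and 0.32.

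A second guide against Cgas or Sting was set against sgArid1a alone to see which changes need the DNA sensor cGAS or its adaptor STING. The libraries with sgCgas went against their label in part, as Arid1a was at 11.03 and 10.74, above 10.43 and 10.39 in sgArid1a cells. Messenger RNA of Mb21d1, the symbol of Cgas in the tables, was at 8.03 and 7.98, against 8.06 and 7.96. Its protein was not measured. In libraries labelled sgArid1a/sgSting, Tmem173 (Sting) was at 9.04 and 8.87, against 9.47 and 9.51, and Arid1a at 10.71 and 10.83. The sgArid1a and sgScramble libraries are those of the anti-IFNAR table, and the header names a comparison with that experiment, so experiment and second guide cannot be told apart.

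In the library pair labelled sgArid1a/sgCgas 0 of 6 members were called against sgArid1a in limma (28.7% of 11604 genes called), and 2 had an unadjusted p under 0.05, beside 40.4% of genes. These were Nfkbia, 7.64 and 7.56 against 7.85 and 7.86 (-0.25 ± 0.11, adjusted p = 0.1), and Nfkb1, 9.91 and 9.81 against 9.68 and 9.64 (0.20 ± 0.09, adjusted p = 0.12). With only these 2 groups in the fit, 3 were called: Nfkb1, Nfkbia and Rela, the last at 9.58 and 9.56, against 9.43 and 9.28 (0.22, adjusted p = 0.042). In the pair labelled sgArid1a/sgSting, 1 of 6 was called (31.8% of genes, 13.9% higher): Nfkb1, with 9.88 and 9.95 against 9.68 and 9.64, 0.26 ± 0.09 (limma, adjusted p = 0.045). This call was lost without each of the 4 libraries (adjusted p = 0.072 to 0.21), and the authors' deposited table gives an adjusted p of 0.079. Nfkbia was at 7.62 and 7.55 in the sgSting pair, against 7.85 and 7.86, -0.27 ± 0.11 (limma, adjusted p = 0.081). Tnfaip3, under the limit of testing, was at 3.40 and 3.45 in that pair, against 3.61 and 3.68, and the authors' deposited table gives it a log2 fold change of -1.71 with an adjusted p of 0.017. Nfkb2, Relb and Birc3 had log2 fold changes of -0.20 to 0.08 with sgCgas and -0.14 to 0.11 with sgSting, where Rela was at 0.05, and none of these was called in limma. Both comparisons share the sgArid1a libraries. Among the other pathway genes, Nfkbib, which encodes IκBβ, was lower in both, by -0.53 ± 0.12 with sgCgas and -0.75 ± 0.12 with sgSting (limma, adjusted p = 0.0044 and 0.00035), and Ikbkb, the kinase of IκB, was higher by 0.44 ± 0.10 in each (limma, adjusted p = 0.005 and 0.0047). In all, 1 of 40 rose and 5 fell with sgCgas, and 3 rose and 7 fell with sgSting.

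Agents that block interferon signalling gave few called genes in limma in sgArid1a cells. Of 7 listed IFNγ-induced genes, Gbp2 among them, 6 were tested. With anti-IFNAR 0 of these were called (median log2 fold change -0.08), and with ruxolitinib 1 was called, lower (median -0.18). How far signalling was blocked was not tested. With 2 libraries a group, few calls do not show that few genes changed. With anti-IFNAR, 0 of 7 members were called and 0 had an unadjusted p under 0.05 (limma), where 2 of 11686 genes (0.0171%) were called and 1.28% had such a p. Nfkbia had 8.16 and 8.03 with anti-IFNAR, against 8.01 in both untreated sgArid1a libraries. The log2 fold changes of the other 6, Nfkb1, Nfkb2, Rela, Relb, Tnfaip3 and Birc3, ran from -0.14 for Relb to 0.06 for Birc3. With ruxolitinib, 0 of 6 members were called (0.221% of 11783 genes), and 1 had an unadjusted p under 0.05, beside 9.92% of genes. This was Rela, with 9.30 and 9.46 with ruxolitinib, against 9.60 and 9.74 with DMSO, -0.29 ± 0.09 (limma, adjusted p = 0.47). Both ruxolitinib libraries lay below both DMSO libraries. In the authors' deposited table, Rela is at -0.46 with an adjusted p of 0.011, and it is the only 1 of the 6 under 0.05 there. Nfkb1, Nfkb2, Relb, Nfkbia and Birc3 were at -0.12 to 0.04 with ruxolitinib in limma. Of the 40 other pathway genes, 0 were called in limma in either comparison, and 0 with anti-IFNAR and 6 with ruxolitinib had an unadjusted p under 0.05. The comparisons share sgArid1a libraries with those against sgScramble.

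MC38 cells had Vcam1 and Ptgs2 above the limit of testing in culture, in the absence of a host. Of 9 members tested, 3 were lower in sgArid1a MC38 and none was higher, where 21.2% of 11516 genes were called and 12.9% were called lower. Vcam1 had 9.45 and 9.38 in sgArid1a MC38, against 9.98 and 9.93 in sgScramble MC38, -0.54 ± 0.03 (limma, adjusted p = 8.2e-15), and the authors' deposited table gave -1.01. Ptgs2 had 9.76 and 9.79, against 9.93 and 10.04, -0.21 ± 0.03 (limma, adjusted p = 1.2e-05). In both genes the 2 groups were apart, with sgArid1a below. Nfkb2 had 10.67 and 10.64, against 10.75 and 10.74, -0.09 ± 0.03 (limma, adjusted p = 0.025), a call that was lost without sgScramble replicate 1 (-0.09, adjusted p = 0.054), without sgArid1a replicate 1 (-0.11, adjusted p = 0.11) and without sgArid1a replicate 2 (-0.08, adjusted p = 0.23). The authors' deposited table gives Nfkb2 an adjusted p of 0.32. As for the colon label, all 5 epithelial markers had means under 4, and 2 of them were 0 in all libraries, while Ptprc and the 7 endothelial markers were also under 4.

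Subunits in MC38 hardly moved. Nfkb1 had 10.62 in both sgArid1a libraries, against 10.72 and 10.68 (-0.08 ± 0.03, limma, adjusted p = 0.058), and was called without sgScramble replicate 2 (-0.10, adjusted p = 0.032). Rela had 9.49 and 9.47, against 9.54 and 9.56 (-0.07 ± 0.03, limma, adjusted p = 0.09). Relb overlapped, at 7.65 and 7.64, against 7.62 and 7.65. Nfkbia (-0.05 ± 0.03), Tnfaip3 (-0.02 ± 0.01) and Birc3 (0.01 ± 0.01) were not called in limma (adjusted p = 0.32, 0.4 and 0.72). Of 49 other pathway genes tested, 7 rose and 11 fell, beside 21.2% of all genes called. Ccl2, the monocyte chemokine, had 10.19 and 10.28 in sgArid1a MC38, against 10.86 in both sgScramble libraries (-0.62 ± 0.03, limma, adjusted p = 3e-16). Tnfrsf12a, the receptor of the cytokine TWEAK and an activator of the noncanonical route, was at -0.54 ± 0.03 (limma, adjusted p = 2e-14), and Ier3, an early response gene, at -0.52 ± 0.04 (limma, adjusted p = 1.2e-11).

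In MEFs, 1 member was higher and 1 lower of 10 tested in Arid1a -/- cells (9.71% of 12184 genes called, 4.69% higher and 5.01% lower). Ptgs2 had 11.52 and 11.33 in Arid1a -/- MEFs, against 11.73 and 11.66 in WT MEFs, -0.27 ± 0.07 (limma, adjusted p = 0.034), and the authors' deposited table gave -0.40 with an adjusted p of 0.021. The limma call did not hold without Arid1a -/- replicate 2 (-0.18, adjusted p = 0.31), without WT replicate 1 (-0.24, adjusted p = 0.095) or with libraries centred on their median (-0.26, adjusted p = 0.052). Icam1 had 4.4 and 4.47 in Arid1a -/- MEFs, against 4.32 and 4.33, 0.11 ± 0.02 (limma, adjusted p = 0.023). It was lost without Arid1a -/- replicate 2 (0.07, adjusted p = 0.13), and its level is close to the limit of testing, where the normalized scale compresses differences. The authors' deposited table gives 1.78 for Icam1, with an adjusted p of 0.078.

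Relb had 7.90 and 8.02 in Arid1a -/- MEFs, against 7.77 and 7.78 in WT MEFs, 0.19 ± 0.05 (limma, adjusted p = 0.056), and Vcam1 9.20 and 9.17, against 9.45 and 9.24, -0.16 ± 0.07 (limma, adjusted p = 0.2). In both genes the groups were apart, and neither was called by the limma fit of group alone. Relb was called without Arid1a -/- replicate 1 (0.25, adjusted p = 0.009) and with no filter on low values (0.19, adjusted p = 0.045), and Vcam1 without WT replicate 2 (-0.26, adjusted p = 0.018). Rela and Nfkb1, the canonical pair, overlapped between the groups, as did Tnfaip3 (-0.04 ± 0.05) and Birc3 (0.03 ± 0.05). Nfkb2 was at 0.14 ± 0.06 and Nfkbia at -0.10 ± 0.05, groups apart and uncalled by the fit of group alone (limma, adjusted p = 0.21 and 0.29). With the replicate number as a block, Relb, Vcam1, Nfkb2 and Nfkbia were called (limma, adjusted p = 1.8e-05, 5.9e-05, 6.2e-05 and 0.011). Whether same-numbered MEF libraries are pairs is not known. Among 50 other pathway genes tested, 2 rose and 1 fell, beside 9.71% of all genes called. Tlr3, the receptor for double-stranded RNA, was at 0.48 ± 0.07 and Myd88, the adaptor of most other Toll-like receptors, at 0.24 ± 0.05. Tlr4 was at -0.18 ± 0.05 (limma, adjusted p = 0.00097, 0.012 and 0.047 in this order). Fibroblast markers were high in these cells, with summed log2 levels of 16.05 to 16.19 in Arid1a -/- MEFs and 16.11 to 16.27 in WT MEFs.

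Ptgs2 was tested in 3 comparisons, and its log2 fold change with Arid1a loss was below 0 in each: tumors (-1.22), MC38 cells (-0.21) and MEFs (-0.27), of which the last lost its call in the 3 alternatives given above. Vcam1 was tested in the same 3 and was higher in tumors (1.76), lower in MC38 cells (-0.54) and at -0.16 in MEFs. Its call in MEFs depended on the libraries used and on whether the replicate number was in the fit. The tables were fitted separately, and the difference between these fold changes was not tested.

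The table of IFNγ and PBS cultures contradicts its labels. Gbp2, an IFNγ-induced GTPase, was at 13.53 and 13.40 in libraries labelled sgArid1a with IFNγ and at 12.67 and 12.26 in those labelled sgArid1a with PBS. It was at 9.18 and 9.13 in libraries labelled sgScramble with IFNγ and at 8.81 and 8.83 in those labelled sgScramble with PBS. Gbp2 thus followed the guide in the label, while Arid1a followed the IFNγ label: 12.15 and 12.13 in sgArid1a with IFNγ and 11.997 and 12.11 in sgScramble with IFNγ, against 12.25 and 12.40 in sgArid1a with PBS and 12.42 and 12.40 in sgScramble with PBS. The libraries are named by their labels, and no direction is assigned to guide or cytokine. The difference of differences has the same value if the labels sgArid1a with PBS and sgScramble with IFNγ stand for each other.

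Nfkb2 was lowest in the libraries labelled sgArid1a with IFNγ, at 9.71 and 9.72. It was at 9.997 and 10.03 in those labelled sgArid1a with PBS, at 10.18 and 10.10 in those labelled sgScramble with IFNγ, and at 10.09 and 10.07 in those labelled sgScramble with PBS. No library of the other 3 groups came near the first pair. The difference between the groups labelled IFNγ and PBS was -0.30 ± 0.05 under sgArid1a (limma, adjusted p = 6.5e-05) and 0.06 ± 0.05 under sgScramble (limma, adjusted p = 0.35). The difference of these differences was -0.35 ± 0.07 (limma, adjusted p = 0.0097). It kept its size when each of the 8 libraries was left out (-0.40 to -0.31), and its call was lost without 5 of them: either library labelled sgArid1a with IFNγ, either labelled sgScramble with PBS, or replicate 2 labelled sgArid1a with PBS (adjusted p = 0.052 to 0.083).

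Relb was highest in the libraries labelled sgScramble with IFNγ, at 8.43 and 8.23. The libraries labelled sgArid1a with IFNγ had 7.90 and 7.92, those labelled sgArid1a with PBS 7.89 and 7.95, and those labelled sgScramble with PBS 8.04 and 8.01. The first group lay above all others, and sgArid1a labels overlapped. Nfkbia was also highest there, at 9.13 and 9.23, with 8.92 and 8.84 in the libraries labelled sgArid1a with IFNγ, 8.69 and 8.67 in those labelled sgArid1a with PBS, and 8.81 and 8.68 in those labelled sgScramble with PBS. Within each guide label, both libraries labelled IFNγ exceeded both labelled PBS for Nfkbia.

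**Figure D4:**
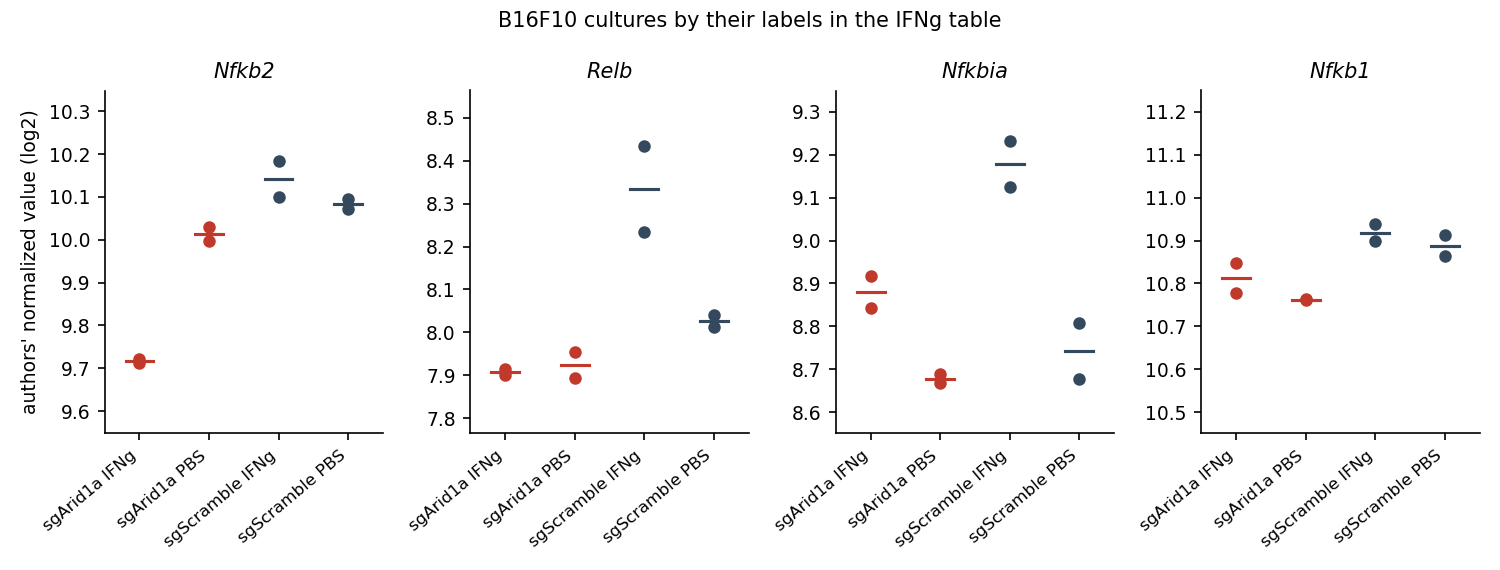
Authors' normalized log2 values of Nfkb2, Relb, Nfkbia and Nfkb1 in the 8 B16F10 libraries of the IFNγ table, by the labels of guide and treatment (red, sgArid1a; dark, sgScramble); points are libraries, 2 a group, bars are means, and all panels have the same span. Nfkb2 stands low in the libraries labelled sgArid1a with IFNγ, and Relb and Nfkbia stand high in those labelled sgScramble with IFNγ.

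By comparison in this table, 2 of 7 tested members were called between the IFNγ and PBS labels under sgScramble (35% of 12357 genes called, 15.7% higher), Relb at 0.31 ± 0.06 and Nfkbia at 0.44 ± 0.06, both higher (limma, adjusted p = 0.00063 and 1.2e-05). Under the sgArid1a label 3 of 7 were called (42.3% of genes, 20.9% higher and 21.3% lower): Nfkb2, and Tnfaip3 at -0.12 ± 0.03, both lower, and Nfkbia at 0.20 ± 0.06, higher (limma, adjusted p = 0.0085 for Tnfaip3 and 0.0088 for Nfkbia). The call of Tnfaip3 was lost without sgArid1a PBS replicate 1 or sgArid1a IFNγ replicate 2 (-0.08 in each, adjusted p = 0.14 and 0.13), and that of Nfkbia without sgArid1a PBS replicate 2 (0.19, adjusted p = 0.057) or sgArid1a IFNγ replicate 1 (0.17, adjusted p = 0.092). Icam1, at 2.35 and 2.36 in libraries labelled sgArid1a with IFNγ, against 2.41 in both labelled sgArid1a with PBS, was not tested, and the authors' deposited table gives it -4.15 with an adjusted p of 0.00015. Between the sgArid1a and sgScramble labels with IFNγ, 3 of 7 were lower (6.73% of genes called, 2.7% lower): Nfkb2 at -0.42 ± 0.05, Relb at -0.43 ± 0.06 and Nfkbia at -0.30 ± 0.06 (limma, adjusted p = 4.8e-06, 9.9e-05 and 0.0025). Without sgArid1a IFNγ replicate 2, Nfkbia was not called (-0.26, adjusted p = 0.06). Between the guide labels with PBS, 0 of 7 were called in limma and 1 had an unadjusted p under 0.05 (2.72% of genes called, 12.5% with such a p). For the difference of differences, 0.882% of genes were called (0.186% lower), and of the 7 members Nfkb2 alone. Relb was at -0.33 ± 0.08 and Nfkbia at -0.23 ± 0.08 (limma, adjusted p = 0.11 and 0.28), and Relb was called without sgScramble IFNγ replicate 2 (-0.43, adjusted p = 0.0011). Nfkb1, Rela and Birc3 were called in none of these.

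Other pathway genes in the same libraries were called between guide labels, between the IFNγ and PBS labels, or both. Csf1, the macrophage growth factor, and Tlr3 were called between the guide labels with either treatment: sgArid1a over sgScramble was 1.07 ± 0.05 and 0.83 ± 0.05 with IFNγ (limma, adjusted p = 1.2e-10 and 3.9e-09), and 0.92 ± 0.05 and 0.58 ± 0.05 with PBS (limma, adjusted p = 1.8e-09 and 8e-07). Tnfrsf12a and Tnfaip2 were called between the IFNγ and PBS labels under either guide: IFNγ over PBS was -1.01 ± 0.05 and -0.69 ± 0.05 under sgArid1a (limma, adjusted p = 2.1e-11 and 1.3e-08), and -0.84 ± 0.05 and -0.71 ± 0.05 under sgScramble (limma, adjusted p = 2.5e-10 and 1.2e-08). Of 43 tested, 9 rose and none fell between guide labels with IFNγ (6.73% of all genes called), and 4 rose with PBS (2.72%). With the IFNγ label, 6 rose and 14 fell under sgArid1a (42.3%), and 7 rose and 11 fell under sgScramble (35%). For the difference of differences 0 were called in limma, beside 0.882% of genes, and 8 had an unadjusted p under 0.05, beside 11.2%.

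BD98 was given to sgScramble B16F10 cells, and its table has raw counts, so the depth behind each value is known. Of 7 members that passed edgeR's filter, 2 rose and 1 fell with BD98, where 49.9% of 12843 genes were called (24.5% higher, 25.4% lower). Nfkb1 had 945 and 1053 counts with BD98 (72.4 and 75.5 CPM), against 2159 and 1362 with DMSO (91.3 and 90.8), -0.42 ± 0.08 (edgeR, adjusted p = 6.9e-05). The other precursor gene, Nfkb2, had 707 and 695 counts (54.2 and 49.8 CPM), against 978 and 583 (41.3 and 38.9), 0.25 ± 0.09 (edgeR, adjusted p = 0.022). In neither gene did the groups overlap in CPM. The call of Nfkb2 was lost with DESeq2 (0.26, adjusted p = 0.06), without DMSO replicate 1 (0.30, adjusted p = 0.058), without DMSO replicate 2 (0.21, adjusted p = 0.17) and without BD98 replicate 1 (0.18, adjusted p = 0.11). The authors' deposited table gives it an adjusted p of 0.056.

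Tnfaip3 had 61 and 48 counts with BD98 (4.67 and 3.44 CPM), against 32 and 30 with DMSO (1.35 and 2.00), 1.20 ± 0.30 (edgeR, adjusted p = 0.0016). The lower BD98 library was above the higher DMSO library, on few counts, and the call was lost without DMSO replicate 1 (0.89, adjusted p = 0.063). Rela had 947 and 1009 counts (72.5 and 72.4 CPM), against 1399 and 931 (59.1 and 62.0), 0.14 ± 0.08 (edgeR, adjusted p = 0.15). Scaling with TMM factors, which set most genes near 0, shifted BD98 against DMSO by -0.12 on the log2 scale relative to library totals. With library totals only, an alternative chosen after seeing the data, Rela was called higher (0.26, adjusted p = 0.0078), and Relb was at 0.11, against -0.01 with TMM, uncalled in both. Nfkbia had 260 and 269 counts (19.9 and 19.3 CPM), against 431 and 245 (18.2 and 16.3), 0.06 ± 0.12, and Birc3 23 and 40, against 35 and 43.

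**Figure D5:**
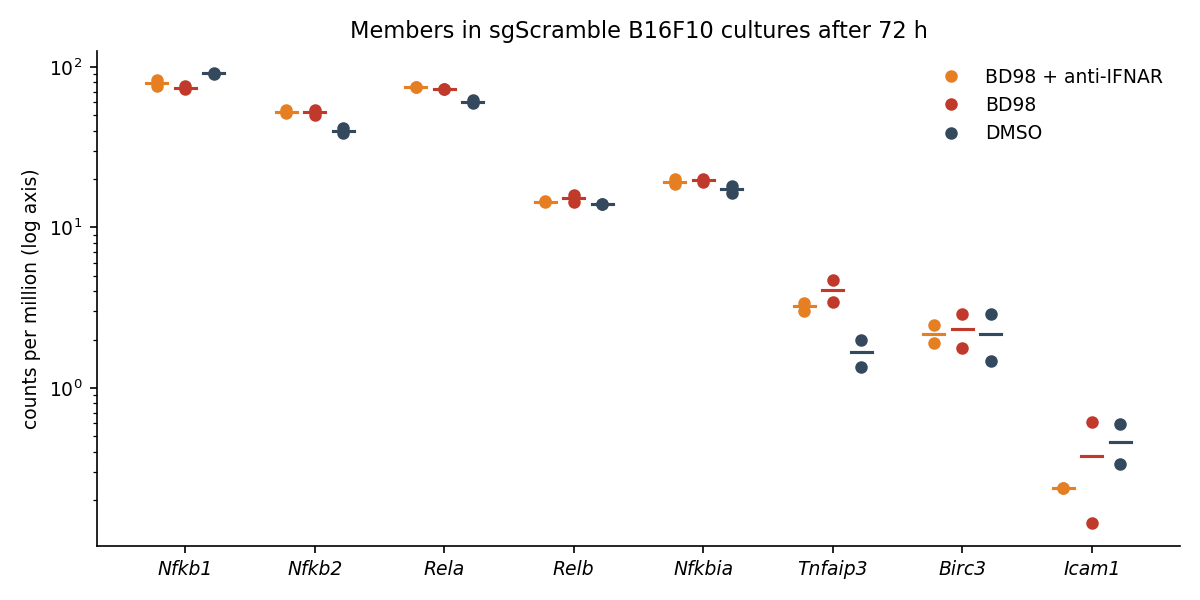
CPM (log axis) of 8 of the 10 genes in sgScramble B16F10 cells after 72 h with BD98 and anti-IFNAR, with BD98 or with DMSO; points are libraries, 2 a group, and bars are means. Vcam1 and Ptgs2 had 0 counts throughout and are not drawn; Tnfaip3 averaged 3.22, 4.06 and 1.68 in this order.

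Adding anti-IFNAR to BD98 gave 0 called members of 7 in edgeR and in DESeq2, and 0 with an unadjusted p under 0.05, where 1.49% of genes were called and 12.2% had such a p in edgeR. Nfkb1 had 1274 and 1743 counts (75.7 and 82.4 CPM) with both agents, against 72.4 and 75.5 CPM with BD98 alone. Tnfaip3 had 51 and 72 counts (3.03 and 3.40 CPM) with both, against 4.67 and 3.44 with BD98 alone, -0.34 ± 0.27 (edgeR, adjusted p = 0.68). The other 5 members tested, Nfkb2, Rela, Relb, Nfkbia and Birc3, lay between -0.10 and 0.04 on the log2 fold change scale.

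Of 41 other pathway genes tested, 13 rose and 9 fell with BD98, a share near the 49.9% of all genes called. The receptors Ltbr, for lymphotoxin, and Tnfrsf12a rose by 0.85 ± 0.07 and 1.05 ± 0.09 (edgeR, adjusted p = 1.9e-10 and 4.2e-10), among 4 of 6 ligands and receptors higher and 1 lower. Ikbke was at -0.73 ± 0.10 and Myd88 at 0.88 ± 0.16 (edgeR, adjusted p = 1.2e-06 and 3.9e-05), with 4 kinases and adaptors higher and 5 lower of 18. Csf1 rose by 0.93 ± 0.11, and Tnfaip2 was at -0.61 ± 0.09 (edgeR, adjusted p = 1.7e-07 and 1.5e-06). With anti-IFNAR on top, Tnfrsf12a, Junb and Gadd45b were lower by -0.40 ± 0.09, -0.83 ± 0.18 and -0.75 ± 0.18 than with BD98 alone (edgeR, adjusted p = 0.016, 0.009 and 0.029). All 7 melanocytic markers fell with BD98, and Arid1a fell by 0.48 ± 0.07 on the log2 scale (edgeR, adjusted p = 2.1e-06).

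Which genes ran most alike with 6 of the members was described over all 42 libraries, each table centred on its own mean, among 10134 genes tested in every table. These libraries share tables and groups, so no p is given. Nfkb1 was most like Tet3, an enzyme that oxidizes methylated DNA (Pearson's r 0.86), and Rela most like Ccdc97 (0.87). Nfkb2 was most like Adcy6, an adenylyl cyclase (0.76), and Nfkbia most like Snn (0.79). The lymphotoxin receptor gene Ltbr was next for Nfkb2 (0.75), and without the tumors it was above Adcy6 (0.725, against 0.702). For Relb the closest was Tmed3 (0.72), which fell to 0.52 without the tumors, and for Birc3 it was A230072C01Rik (0.64). None of these 6 members was the closest gene of another. Tnfaip3, Vcam1, Icam1 and Ptgs2 were not tested in every table and have no such gene.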

How the data were processed

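RNA-seq of 42 libraries in 21 groups of 2 was read from 8 gene tables. STAR 2.5.3a aligned them to GRCm38/mm10, per the submitters' processing notes. Per the file headers, reads in exons were counted with HOMER, 1 transcript kept per gene, and tested by the authors with edgeR or DESeq2. The deposited values are raw counts in the BD98 table and normalized log2 values in the other 7. The authors' log2 fold changes and adjusted p-values were copied from their deposited tables. A further 10 value columns matched no sample of the series and were not used.

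The log2 values were tested with limma 3.58.1 (trend, R 4.3.3, no pseudocount, mean of at least 4), and counts with edgeR 4.0.16 (quasi-likelihood, TMM, filterByExpr), and also with DESeq2 1.42.0. The groups of a table were fitted together. Benjamini-Hochberg adjustment ran over all genes tested. The procedures were tested on simulated data. Where a library was left out, the lone sample of its group was assumed to vary like the other groups. Other alternatives were no filter, median centring, other scalings, 2-group fits and a replicate block. CPM used summed gene counts, and RPKM also the listed transcript length.

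Members were named in each table, those at low levels by their range. Other pathway genes were named by rule, up to 2 called genes per role with the smallest adjusted p, together with the closest gene by Pearson's r to each of the 6 members tested in every table. Members and lists were chosen with earlier results of these data known. No 2 libraries held identical values (0 pairs), and replicate numbers were not taken as pairs. In counts, precision covers counting error only.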

Additional observations from a re-analysis of the deposited data

Results flagged for a closer look

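Nfkb2 in the IFNγ table differed in its difference between the IFNγ and PBS labels: under sgArid1a it was 0.35 lower than under sgScramble on the log2 scale (log2 difference of differences -0.35 ± 0.07, limma, adjusted p = 0.0097), with both libraries labelled sgArid1a with IFNγ below the other 6. The labels of that table are contradicted by Gbp2.

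For other genes, both libraries with Arid1a loss lay on 1 side of both controls in 1 comparison and on the opposite side in another. How often this occurs among all genes was not counted. With 2 libraries a group, the spread between libraries alone can set small differences apart. The experiments were fitted separately and the differences between them were not tested. Vcam1 was higher in tumors (1.76), lower in MC38 cells (-0.54) and at -0.16 in MEFs, without a call by the fit of group alone. Nfkb2 was at 0.34 in tumors and 0.14 in MEFs, against -0.09 in MC38 cells. Relb was at 0.61 in tumors and 0.19 in MEFs, against -0.1 in DMSO cultures. Nfkb1 was at 0.15 in tumors, against -0.16 in untreated cultures and -0.08 in MC38 cells. Nfkbia was at 0.32 in untreated cultures and 0.2 in DMSO cultures, against -0.08 in tumors, -0.05 in MC38 cells and -0.1 in MEFs. Tnfaip3 was at 0.23 in tumors, against -0.02 in MC38 cells. Of these, the limma fits of group alone called Vcam1, Nfkb2, Relb and Tnfaip3 in tumors and Vcam1 and Nfkb2 in MC38 cells.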

How the results depend on the processing

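The replicate numbers do not establish pairs: the correlation of same-numbered deviations ranged from -0.51 in tumors to 0.69 in MEFs. With the replicate number as a block, 6 of 10 members were called in MEFs in place of 2 (Nfkb2, Relb, Nfkbia and Vcam1 were added), and Nfkb1 was added in MC38 cells (adjusted p = 0.036). Otherwise the block changed no call of a member. In the sgSting comparison the block was not fitted, because the sgSting columns carry no replicate number.

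The number of members called moved to 3 with only the 2 groups in the sgCgas comparison, to 0 with no filter in the sgSting comparison, and to 1 with centred libraries in MEFs. Leaving out each library gave 0 to 2 in untreated cultures, 0 to 0 with sgSting, 0 to 2 for the difference of differences, 1 to 3 with BD98 and 0 to 3 in MEFs. The causes were not tested. Counts of all genes called, with their range over all alternatives, moved by over 1.5 times in 12 of 16 comparisons: 1372 (451 to 2840) for untreated cultures, 3329 (1468 to 5135) for the sgCgas comparison, 3688 (1610 to 4501) for the sgSting comparison, 2 (0 to 18) for anti-IFNAR, 928 (182 to 3240) for DMSO cultures, 26 (4 to 89) for ruxolitinib, 336 (208 to 499) for guide labels with PBS, 832 (488 to 1597) for guide labels with IFNγ, 109 (56 to 881) for the difference of differences, 192 (86 to 810) for anti-IFNAR on BD98, 2443 (1156 to 2806) for MC38 cells and 1183 (961 to 5013) for MEFs.

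A changed sign was found for 29 of 115 results of single members, in 46 alternatives, none of them called as reported or in the alternative. The log2 fold change of Rela between guide labels with PBS was -0.0056 with centred libraries, and that of Relb with BD98 was 0.11 with library totals only. Nfkb2 with anti-IFNAR on BD98 was at -4e-04 with DESeq2 and -5e-04 with RLE size factors. The other sign changes came from leaving out 1 library, with these ranges of log2 fold changes. Birc3 ranged from -0.061 to 0.12 in tumors, -0.0035 to 0.22 with sgSting, -0.42 to 0.53 with BD98, -0.38 to 0.30 with anti-IFNAR on BD98, -0.0032 to 0.019 in MC38 cells and -0.022 to 0.088 in MEFs. Rela ranged from -0.032 to 0.091 in tumors, -0.0296 to 0.29 in untreated cultures, -0.033 to 0.12 with sgSting, -0.063 to 0.057 with anti-IFNAR and -0.054 to 0.079 between guide labels with PBS. Nfkb2 ranged from -0.028 to 0.37 in untreated cultures, -0.059 to 0.0603 with sgSting, -0.014 to 0.073 with anti-IFNAR, -0.063 to 0.074 with ruxolitinib and -0.065 to 0.072 with anti-IFNAR on BD98. Relb ranged from -0.33 to 0.045 with sgSting, -0.17 to 0.012 with ruxolitinib, -0.048 to 0.013 between IFNγ and PBS labels under sgArid1a, -0.088 to 0.064 with BD98 and -0.0083 to 0.021 in MC38 cells. Nfkb1 ranged from -0.0034 to 0.076 with anti-IFNAR, -0.047 to 0.079 in DMSO cultures, -0.015 to 0.056 for the difference of differences and -0.012 to 0.024 in MEFs. Tnfaip3 ranged from -0.008 to 0.076 between guide labels with PBS and -0.056 to 0.022 with IFNγ. Nfkbia ranged from -0.013 to 0.14 with BD98 and -0.091 to 0.017 with anti-IFNAR on BD98.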
